A study of Homo sapiens with 27 samples.

Results

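The mRNA levels of the 3 FOXO transcription factors FOXO1, FOXO3 and FOXO4 and of 7 genes known as their targets or partners in restraining growth (TXNIP, ARRDC4, PIK3IP1, IRS2, CCNG2, SESN3 and KLF9) were followed in expanding U2OS cells with and without depletion of MMP2. These 10 genes, of 55882 gene symbols counted, were listed by name, with earlier results of these data known, so that their counts are a description. Reads were counted in every library for 9 of them. IRS2 had 0 reads in 22 of the 27 libraries and entered no test.

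U2OS is a human osteosarcoma cell line. As the study describes them, the 3 stable lines were the pLKO.1 negative control and the MMP2sh1 and MMP2sh2 lines. The latter carried different shRNAs against MMP2 in the pLKO.1 vector. The study gives lentiviral transduction and puromycin selection as the way its stable lines were made. The control samples are titled U2OS WT, without mention of a vector. If they were untransduced cells, effects of transduction and selection could not be told apart from those of the shRNAs. Poly(A) RNA was sequenced from subconfluent cells (day -2), confluent cells (day 0) and overconfluent cells (day +2), with 3 libraries in each of the 9 groups, which the study describes as independent biological replicates.

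FOXO factors are forkhead transcription factors that AKT, acting downstream of insulin and growth factor receptors and PI3K, phosphorylates and keeps out of the nucleus. When this signal weakens they enter the nucleus and raise genes that slow the cell cycle, limit PI3K and mTORC1 activity and alter glucose use. Several of the same genes have other regulators as well: TXNIP and ARRDC4 are also raised by the glucose-sensing factor MondoA, and KLF9 by glucocorticoids.

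To show the regulatory sequence of the member that changed most, of its relative ARRDC4 and of CCNG2, the 250 bases before a RefSeq start site of each (the more upstream of the 2 listed for TXNIP, with sequences from GRCh38.p14, each found once, without mismatch, in GRCh37) are given 5′ to 3′ on the strand of the gene. Capitals mark matches to the FOXO core GTAAACA, to the E-box CACGTG, or to paired CACGNG elements 5 bases apart, the arrangement that MondoA and its partner MLX are known to bind. The TXNIP stretch (chr1:145438240-145438489, plus strand) lies before the annotated start of the gene, as do those of ARRDC4 (chr15:98503683-98503932, plus strand) and CCNG2 (chr4:78078110-78078359, plus strand).
TXNIP: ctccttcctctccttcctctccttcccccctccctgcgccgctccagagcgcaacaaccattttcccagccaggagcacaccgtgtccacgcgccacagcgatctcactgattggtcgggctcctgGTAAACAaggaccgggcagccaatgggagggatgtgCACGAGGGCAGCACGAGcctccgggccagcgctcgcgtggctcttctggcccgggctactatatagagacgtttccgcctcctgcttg
ARRDC4: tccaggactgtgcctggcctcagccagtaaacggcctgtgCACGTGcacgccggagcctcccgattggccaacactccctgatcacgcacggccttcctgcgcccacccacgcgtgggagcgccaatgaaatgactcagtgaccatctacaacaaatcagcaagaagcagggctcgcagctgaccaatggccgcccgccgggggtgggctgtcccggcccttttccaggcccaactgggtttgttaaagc
CCNG2: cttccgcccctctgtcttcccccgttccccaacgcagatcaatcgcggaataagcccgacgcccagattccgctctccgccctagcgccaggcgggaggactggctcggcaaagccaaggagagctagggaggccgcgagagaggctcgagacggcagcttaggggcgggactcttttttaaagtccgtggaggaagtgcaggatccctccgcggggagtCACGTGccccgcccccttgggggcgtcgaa

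On GRCh37, the annotation places FOXO1 at chr13:41129804-41240778 (minus strand, 3 exons in the canonical transcript), FOXO3 at chr6:108882120-109005977 (plus strand, 3 exons) and FOXO4 at chrX:70315701-70323382 (plus strand, 3 exons). TXNIP lies at chr1:145438490-145442635 (plus strand, 9 exons), ARRDC4 at chr15:98503933-98517063 (plus strand, 8 exons) and PIK3IP1 at chr22:31677586-31688474 (minus strand, 6 exons). IRS2 lies at chr13:110405042-110438930 (minus strand, 2 exons), CCNG2 at chr4:78078360-78091213 (plus strand, 8 exons), SESN3 at chr11:94898677-94964366 (minus strand, 10 exons) and KLF9 at chr9:72999520-73029573 (minus strand, 2 exons). All 10 are protein-coding, and counts are over their exons, untranslated regions included.

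In the TXNIP promoter the FOXO core began 124 bases and the paired element 88 bases before the start. The FOXO core was present on either strand in 2.98% of the 34788 RefSeq promoter stretches of this length, the E-box in 6.31% and the paired element in 0.046%. Among the 15 annotated start sites of the 10 members, TXNIP was the only gene with a match to the FOXO core or to the paired element, and ARRDC4 and CCNG2 were the only genes with an E-box. The motifs were chosen after the data were in hand, and a match describes letters, not binding.

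Each library held between 33580129 and 59374327 counts on named genes. MMP2, the targeted gene, was at 222 to 248 CPM (the count scaled to library size by edgeR, with TMM factors) in the control at day -2, at 34.0 to 46.8 CPM in MMP2sh1 and at 136 to 155 CPM in MMP2sh2. At day 0 the control was at 318 to 332 CPM, MMP2sh1 at 53.6 to 66.3 CPM and MMP2sh2 at 154 to 160 CPM. At day +2 the ranges were 480 to 497 CPM in the control, 93.8 to 100 CPM in MMP2sh1 and 266 to 291 CPM in MMP2sh2, so that the lines did not overlap at any day. Of the osteosarcoma and osteoblast markers, COL1A1 and SPARC were at 1000 CPM or above and RUNX2 at 30.0 to 63.7 CPM in every library, whereas COL1A2 and SP7 were near 0 (at most 0.683 and 0.168 CPM). ALPL, the alkaline phosphatase of osteoblasts, was at 0.397 to 6.98 CPM. It fell in the control from day -2 to day +2 by 1.18 ± 0.22 on the log2 scale and was higher in MMP2sh1 at day -2 (0.61 ± 0.18) and day +2 (0.88 ± 0.24), and its part in the results below was not tested. Of 7 markers of other cell types with a row in the files, CD3E, ALB and MYOD1 were at most at 0.102 CPM and EPCAM reached 6.73 CPM. VWF was at 1.30 to 4.74 CPM, and CDH1 and PTPRC reached 2.54 and 1.44 CPM. In the control from day -2 to day 0, PTPRC (2.22 ± 0.48 on the log2 scale) and EPCAM (0.41 ± 0.16) rose. CDH1 fell (-1.59 ± 0.47) and VWF changed little (0.02 ± 0.17). The summed level of the 7 markers in the control was 9.52 to 12.1 CPM at day -2 and 10.6 to 12.9 CPM at day 0. At day +2 this sum was 5.30 to 6.67 CPM.

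The level of each counted member in every library is shown in the plot by day and line.

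**Figure D1:**
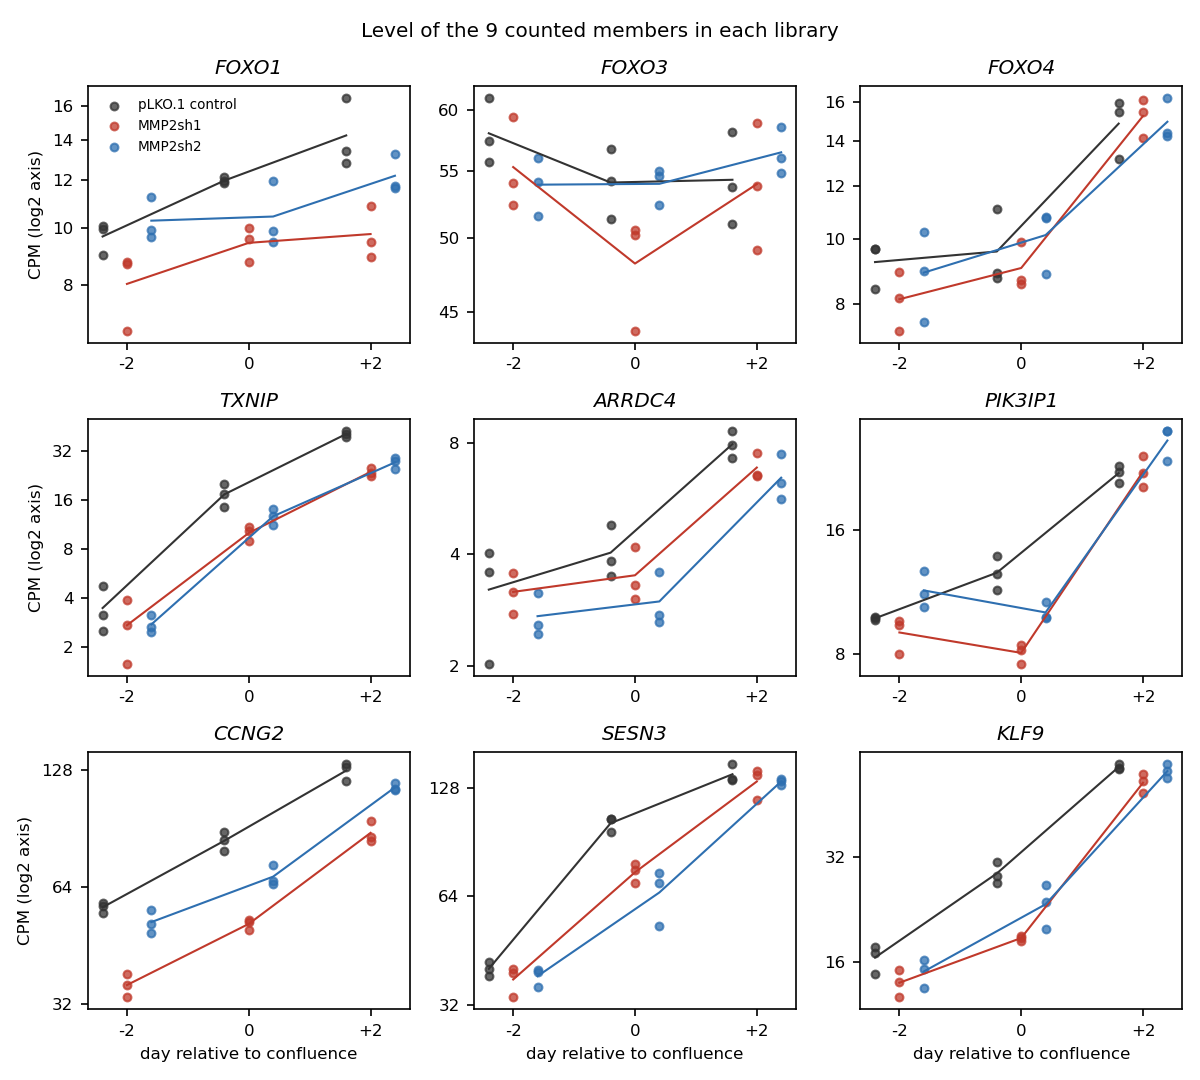
Level in CPM (log2 axis) of the 9 counted members in each of the 27 libraries, by day relative to confluence, with a line through the mean of 3 libraries of the pLKO.1 control (black), MMP2sh1 (red) and MMP2sh2 (blue). TXNIP in the control ran from 2.53 to 42.6 CPM, whereas FOXO3 stayed between 43.8 and 61.0 CPM in all 27 libraries.

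The first comparison asks how the members changed as control cells expanded. From day -2 to day +2, 8 of the 9 tested members rose and none fell, with a median log2 fold change of 1.18 against 0.03 over all genes tested. TXNIP rose 12.2-fold, KLF9 3.56-fold and SESN3 3.49-fold, and FOXO3 was the member that did not pass the test. In the same comparison 56.8% of the 19099 genes tested were called, and 28.1% were called higher. Genes were called at an adjusted p under 0.05 by the quasi-likelihood test of edgeR, with p-values adjusted by the Benjamini-Hochberg method over all genes tested. All log2 fold changes below come from these fits and are given with their standard error (SE). From bulk RNA, fewer cells that express a gene and less of its RNA per cell cannot be told apart.

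FOXO1, the forkhead factor best known in insulin signalling, was at 9.94, 10.1 and 8.98 CPM in the 3 control libraries of day -2, at 12.1, 11.9 and 11.9 CPM at day 0 and at 16.5, 12.8 and 13.5 CPM at day +2. The 3 days did not overlap. FOXO1 rose by a log2 fold change of 0.56 ± 0.11 from day -2 to day +2 (adjusted p = 0.00012). The rise from day -2 to day 0 was 0.31 ± 0.11 (adjusted p = 0.023), but it was not called without the control proliferating (day -2) replicate 3 (0.27, adjusted p = 0.082) or the confluent (day 0) replicate 1 (0.30, adjusted p = 0.066). The rise from day 0 to day +2 was 0.27 ± 0.11 (adjusted p = 0.045) and was not called with DESeq2 (adjusted p = 0.061), without a filter on low counts (0.054), with all 27 libraries in 1 fit (0.095), or without confluent replicate 1, 2 or 3 or overconfluent (day +2) replicate 1 (log2 fold change 0.16 to 0.28, adjusted p from 0.078 to 0.32). FOXO4, the smallest of the 3 factors in this set by transcript length, had overlapping ranges at day -2 (8.42 to 9.66 CPM) and day 0 (8.77 to 11.1 CPM) and lay above both at day +2 (13.2 to 15.9 CPM). It changed little to day 0 on the log2 scale (0.06 ± 0.12, adjusted p = 0.77) and then by 0.65 ± 0.12 to day +2 (adjusted p = 2.8e-05). FOXO3, the most abundant of the 3 FOXO factors per kilobase of transcript, was at 55.7 to 61.0, 51.3 to 56.7 and 51.0 to 58.1 CPM on the 3 days, and its log2 fold change from day -2 to day +2 was -0.09 ± 0.06 (95% interval -0.21 to 0.03, adjusted p = 0.22).

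Counts of the factors have 2 limits. FOXO3B, a near-identical copy of FOXO3, held 119 to 391 reads per library beside 1703 to 3526 for FOXO3, and FOXO1B held 0 to 42 beside 275 to 603 for FOXO1. Reads that fit both copies were not assigned, so small differences in these genes are uncertain. In GENCODE v44, SESN3 shares 0.8% of its exonic length with a transcript of the opposite strand, which the unstranded counting cannot tell apart. In the same annotation, 23.4% of the exonic length of FOXO1 is shared with another gene on the same strand. The counting discarded reads on exons of several genes, but the annotation it used is not known. Whether that annotation held these overlaps, and so whether FOXO1 reads were lost, was not tested.

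TXNIP, an alpha-arrestin that binds thioredoxin and restrains glucose uptake, rose at both steps. Its levels in the control were 2.53, 3.13 and 4.77 CPM at day -2, 20.1, 17.4 and 14.6 CPM at day 0, and 40.8, 42.6 and 39.0 CPM at day +2. The days did not overlap and the replicates of day -2 were the most spread in proportion. The log2 fold change was 2.36 ± 0.16 to day 0 (5.14-fold, adjusted p = 5.8e-12) and a further 1.25 ± 0.09 to day +2 (2.38-fold, adjusted p = 7.5e-13), 3.60 ± 0.13 in all, which placed TXNIP at rank 230 of the 19099 genes by size of change. ARRDC4, a related alpha-arrestin that also limits glucose uptake, was low, at 2.02 to 4.03 CPM at day -2 and 3.48 to 4.81 CPM at day 0, and these ranges overlapped. It rose to 7.30 to 8.61 CPM at day +2. Its log2 fold change was 0.33 ± 0.22 to day 0 (adjusted p = 0.27) and 0.99 ± 0.16 from day 0 to day +2 (adjusted p = 5.4e-06).

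PIK3IP1, a membrane protein that inhibits the catalytic subunit of PI3K, was at 9.78, 9.66 and 9.86 CPM at day -2, at 12.5, 11.5 and 13.8 CPM at day 0 and at 22.9, 20.9 and 22.2 CPM at day +2, again without overlap between days. The log2 fold change was 0.37 ± 0.11 to day 0 (adjusted p = 0.0079) and 0.83 ± 0.09 from day 0 to day +2 (adjusted p = 1.9e-08). Without confluent replicate 3 the earlier change was 0.30 (adjusted p = 0.058). IRS2, an adaptor that links the insulin receptor to PI3K, held 10 reads in the 27 libraries together and at most 6 in any of them. Its level was not detectable at this depth, at which 3 reads are worth 0.0496 to 0.0891 CPM, the upper limit that a count of 0 allows (counting error only).

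The 3 effectors that act on the cell cycle, on mTORC1 and on transcription rose at each step. CCNG2, an unconventional cyclin associated with cell cycle arrest, was at 57.0, 54.7 and 58.1 CPM at day -2, 88.2, 79.2 and 84.6 CPM at day 0 and 132, 130 and 120 CPM at day +2. SESN3, a sestrin that restrains mTORC1, was at 40.2, 38.5 and 42.0 CPM, then 105, 105 and 96.7 CPM, then 149, 136 and 135 CPM on the same days. KLF9, a zinc finger transcription factor, was at 16.9, 14.8 and 17.7 CPM, then 31.1, 28.3 and 26.95 CPM, then 57.9, 57.6 and 59.3 CPM. None of these genes had overlapping days, but the larger step differed between them. SESN3 had a log2 fold change of 1.35 ± 0.06 to day 0 (adjusted p = 2e-16) and of 0.47 ± 0.05 afterwards (adjusted p = 1.4e-08). KLF9 had 0.81 ± 0.09 to day 0 (adjusted p = 2.1e-08) and 1.04 ± 0.07 afterwards (adjusted p = 7.5e-14). CCNG2 had steps of 0.58 ± 0.06 and 0.62 ± 0.05 (adjusted p = 3.5e-09 and 6.6e-11). Whether the steps of a gene differ was not tested.

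Over the 9 tested members, 6 were called higher at day 0 against day -2 (FOXO1, TXNIP, PIK3IP1, CCNG2, SESN3 and KLF9) and none lower, where 35.5% of all genes were called and 16.4% called higher. From day 0 to day +2, 8 were called higher, all but FOXO3, where 41.4% of all genes were called and 21.3% called higher. The median log2 fold changes of the members were 0.37 and 0.65, against 0.02 and 0.01 over all genes. The summed markers of other cell types and 10 of 14 proliferation genes were lower at day +2 than at day -2, with 1 of the 14 higher, and their part in these changes was not tested. Between those days 28.6% of all genes were called lower and 28.1% higher.

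**Figure D2:**
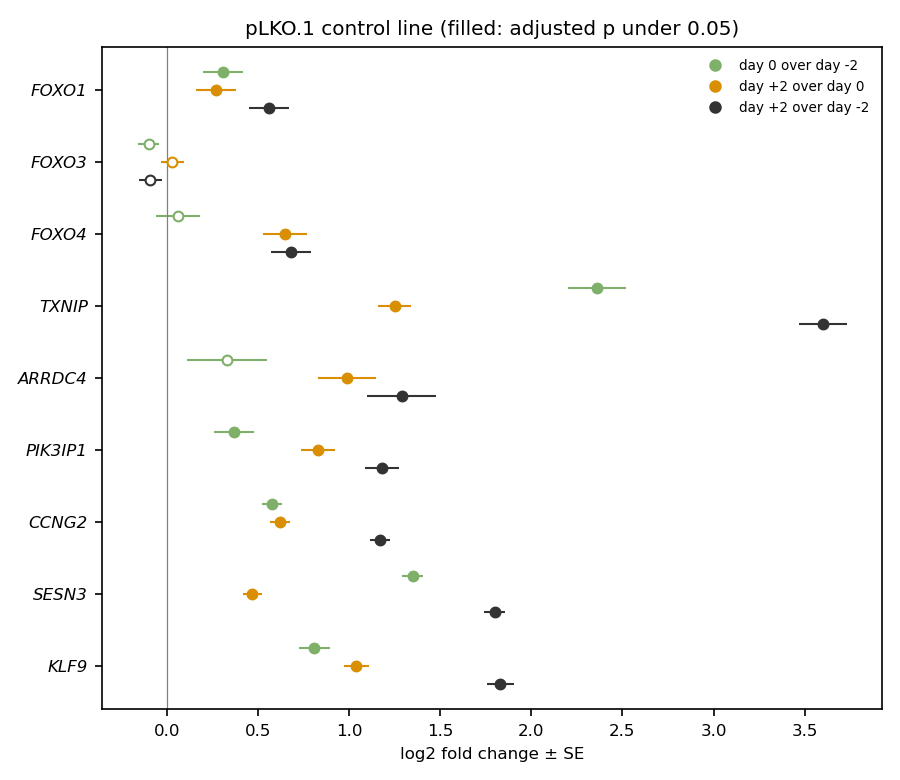
Log2 fold change ± SE of the 9 tested members in the pLKO.1 control for day 0 over day -2 (green), day +2 over day 0 (orange) and day +2 over day -2 (black), with 3 libraries per day. Filled points passed the test, and every point of FOXO3 is open and close to 0, whereas TXNIP reaches 3.60.

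Per kilobase of canonical transcript, the order of the members changed with the day in the control. At day -2 CCNG2 (10.3 ± 0.313 CPM per kb, SD, n = 3) stood above FOXO3 (7.95 ± 0.377), and SESN3 (4.21 ± 0.183) and PIK3IP1 (4.04 ± 0.0405) did not differ beyond their spread. KLF9 (3.16), FOXO4 (2.54), FOXO1 (1.67), TXNIP (1.20) and ARRDC4 (0.790) followed. At day +2 CCNG2 was still highest (23.2 ± 1.18 CPM per kb), SESN3 (14.6 ± 0.850) and TXNIP (14.1 ± 0.629) did not differ beyond their spread, and KLF9 (11.2) and PIK3IP1 (9.08) had passed FOXO3 (7.44). FOXO4 (4.08), FOXO1 (2.47) and ARRDC4 (1.95) were the lowest of the 9. These levels use 1 transcript length per gene and are a description.

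The rise over expansion was also present in the shRNA lines. In MMP2sh1, 7 of 9 tested members were called higher from day -2 to day +2, where 54.9% of all genes were called and 27.3% called higher. In MMP2sh2, 7 of 9 were called higher, where 54.7% of all genes were called and 27.7% called higher. The 2 members not called were FOXO1 and FOXO3 in each line. FOXO1 changed by 0.27 ± 0.14 in MMP2sh1 (adjusted p = 0.11) and by 0.26 ± 0.12 in MMP2sh2 (adjusted p = 0.065), and in MMP2sh2 it was called without the proliferating replicate 3 (0.31, adjusted p = 0.042). The log2 fold changes of TXNIP were 3.12 ± 0.18 and 3.31 ± 0.12, those of KLF9 1.91 ± 0.09 and 1.93 ± 0.09, and those of SESN3 1.82 ± 0.08 and 1.80 ± 0.07. The medians over the members were 1.29 and 1.22, against 0.04 and 0.05 over all genes.

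The difference between each shRNA line and the control in the change from day -2 to day +2 was tested directly as an interaction. No member passed, in a test where 7.40% of all genes were called for MMP2sh1 and 4.98% for MMP2sh2. In edgeR and in DESeq2 the count was 0 of 9 for either line, and 0 members had an unadjusted p under 0.05. The largest member differences in MMP2sh1 were those of TXNIP (-0.48 ± 0.25, 95% interval -0.97 to 0.01, adjusted p = 0.29) and FOXO1 (-0.28 ± 0.18, adjusted p = 0.41). In MMP2sh2 they were those of FOXO1 (-0.31 ± 0.16, adjusted p = 0.32) and TXNIP (-0.29 ± 0.20, adjusted p = 0.47). Without the MMP2sh1 proliferating replicate 1, the library with the lowest TXNIP level of the series (1.57 CPM), the TXNIP difference was -0.73 (adjusted p = 0.032). This library also stood apart from its replicates over all genes. The chi-square per degree of freedom between counts was 19.3 and 24.6 in its pairs and 7.79 between replicates 2 and 3. In the other groups it was at most 13.1. All MMP2sh1 results that use day -2 include this library.

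The next comparison asks how the members differed between the shRNA lines and the control at each day. Most calls were at day 0, where members were lower in both shRNA lines, and no member was called higher in any of these 6 comparisons. MMP2sh1 and MMP2sh2 were compared with the same control libraries, so their results are not independent. At day 0, 6 of 9 tested members were lower in MMP2sh1, where 16.8% of all genes were called and 8.58% called lower, and 5 of 9 were lower in MMP2sh2, where 12.9% were called and 5.81% called lower. The median log2 fold changes of the members were -0.46 and -0.32, against 0 over all genes. The summed markers of other cell types at day 0 were at 10.4 to 11.6 CPM in MMP2sh1 and 8.33 to 11.5 CPM in MMP2sh2, beside 10.6 to 12.9 CPM in the control, and their part in these differences was not tested.

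At day -2, 1 member was lower in MMP2sh1 (CCNG2), where 11.6% of all genes were called and 6.14% called lower, and 0 of 9 in MMP2sh2, where 11% were called and 6.33% called lower. For MMP2sh2 at day -2, DESeq2 also called 0, and 0 members had an unadjusted p under 0.05 in edgeR. At day +2, 3 members were lower in MMP2sh1 (FOXO1, TXNIP and CCNG2), where 14.8% of all genes were called and 7.11% called lower. In MMP2sh2 only TXNIP was lower at day +2, where 6.32% of all genes were called and 3.43% called lower. In this last comparison PIK3IP1 missed the threshold on the side of higher levels (0.26 ± 0.09, adjusted p = 0.062), and it passed with at least 10 counts required in every library (adjusted p = 0.045) or without the MMP2sh2 overconfluent replicate 2 (0.34, adjusted p = 0.021).

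TXNIP was called lower in both shRNA lines at day 0 and at day +2. At day 0 it was at 10.9, 8.94 and 10.3 CPM in MMP2sh1 and 12.8, 11.2 and 14.2 CPM in MMP2sh2, all below the lowest control library (14.6 CPM). At day +2 it was at 25.4, 22.6 and 23.5 CPM in MMP2sh1 and 27.9, 25.01 and 28.9 CPM in MMP2sh2, below the lowest control library (39.0 CPM). MMP2sh1 differed from the control by -0.79 ± 0.11 on the log2 scale at day 0 (adjusted p = 2.6e-06) and by -0.78 ± 0.08 at day +2 (0.584-fold, adjusted p = 8.1e-09). In MMP2sh2 it was -0.46 ± 0.11 (adjusted p = 0.0034) and -0.58 ± 0.08 (0.669-fold, adjusted p = 5.3e-07), but the call at day 0 was lost without the control confluent replicate 1 (-0.35, adjusted p = 0.066). At day -2 the lines overlapped with the control, with log2 fold changes of -0.33 ± 0.27 (adjusted p = 0.50) and -0.32 ± 0.23 (adjusted p = 0.42).

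CCNG2 was lower in MMP2sh1 at all 3 days. Its levels there were 33.2, 38.1 and 35.8 CPM at day -2, 49.6, 52.6 and 51.7 CPM at day 0 and 83.6, 85.8 and 94.5 CPM at day +2, below the lowest control library of the same day each time. The log2 fold changes were -0.66 ± 0.07, -0.71 ± 0.06 and -0.53 ± 0.06 (adjusted p = 4.2e-07, 8.4e-12 and 1.6e-07). In MMP2sh2 CCNG2 was at 51.3, 55.6 and 48.6 CPM, then 65.0, 66.2 and 72.5 CPM, then 113, 114 and 118 CPM on the same days. It was called lower at day 0 (-0.32 ± 0.06, adjusted p = 0.00012) but not at day -2 (-0.13 ± 0.07, adjusted p = 0.24) or day +2 (-0.14 ± 0.06, adjusted p = 0.14), although no MMP2sh2 library of day +2 reached the lowest control library.

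SESN3, KLF9 and PIK3IP1 were lower in both shRNA lines at day 0 and were not called at the other days. SESN3 at day 0 was at 78.5, 69.9 and 75.6 CPM in MMP2sh1 and 69.6, 52.9 and 74.3 CPM in MMP2sh2, all below the control (-0.46 ± 0.05, adjusted p = 7.6e-08, and -0.65 ± 0.07, adjusted p = 2.5e-08). At day +2 SESN3 overlapped with the control in both lines, at 119 to 143 CPM in MMP2sh1 and 131 to 135 CPM in MMP2sh2. KLF9 at day +2 lay below every control library in MMP2sh1 (48.9 to 55.6 against 57.6 to 59.3 CPM, -0.15 ± 0.07, unadjusted p = 0.028, adjusted p = 0.13 in edgeR) and overlapped with the control in MMP2sh2. PIK3IP1, likewise not called, lay above every control library in MMP2sh2 at days -2 and +2 and just below in MMP2sh1 at day -2. KLF9 at day 0 was at 18.4, 18.8 and 19.0 CPM in MMP2sh1 and 26.7, 19.9 and 23.8 CPM in MMP2sh2 (-0.62 ± 0.08, adjusted p = 5e-07, and -0.31 ± 0.09, adjusted p = 0.015). PIK3IP1 at day 0 was at 7.56, 8.43 and 8.17 CPM in MMP2sh1 and 9.82, 9.78 and 10.7 CPM in MMP2sh2 (-0.65 ± 0.11, adjusted p = 6e-05, and -0.33 ± 0.11, adjusted p = 0.04). The calls of KLF9 and PIK3IP1 in MMP2sh2 rested on single libraries. KLF9 was not called without control confluent replicate 1 (-0.25, adjusted p = 0.12) or MMP2sh2 confluent replicate 2 (-0.21, adjusted p = 0.17). PIK3IP1 was not called without control confluent replicate 1 or 3 or MMP2sh2 confluent replicate 1 or 2 (-0.34 to -0.26, adjusted p from 0.096 to 0.17), nor without a filter on low counts (adjusted p = 0.063). Without control confluent replicate 1, 2 of 9 members were called in MMP2sh2 at day 0, and without MMP2sh2 confluent replicate 2, 3 of 9.

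Of the FOXO factors, FOXO1 was lower in MMP2sh1 at day 0 (9.97, 8.75 and 9.56 CPM) and at day +2 (8.94, 9.47 and 10.9 CPM), in each case below every control library of that day. The log2 fold changes were -0.35 ± 0.11 (adjusted p = 0.022) and -0.55 ± 0.12 (adjusted p = 0.0013). At day -2 FOXO1 was not called in MMP2sh1 (-0.26 ± 0.13, adjusted p = 0.22 in edgeR). Its libraries there (6.71 to 8.74 CPM) also lay below every control library (8.98 to 10.1 CPM). At day 0 the call was lost without control confluent replicate 1 (-0.34, adjusted p = 0.067), MMP2sh1 confluent replicate 2 (-0.29, adjusted p = 0.12) or MMP2sh1 confluent replicate 3 (-0.35, adjusted p = 0.052). In MMP2sh2 FOXO1 differed by -0.22 ± 0.11 at day 0 (adjusted p = 0.23) and by -0.22 ± 0.11 at day +2 (adjusted p = 0.28). In these fits FOXO3 and FOXO4 were called at no day in either line. FOXO3 at day 0 in MMP2sh1 (43.8 to 50.6 CPM, -0.17 ± 0.06, adjusted p = 0.063) came nearest to the threshold, and passed it without control confluent replicate 3 (-0.21, adjusted p = 0.040) or with at least 10 counts required in each library (adjusted p = 0.049). FOXO4 at day +2 differed by 0.03 ± 0.10 in MMP2sh1 (95% interval -0.17 to 0.24) and by 0.01 ± 0.10 in MMP2sh2 (-0.19 to 0.21). ARRDC4 was called in none of the 6 comparisons, with log2 fold changes from -0.45 to -0.03.

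**Figure D3:**
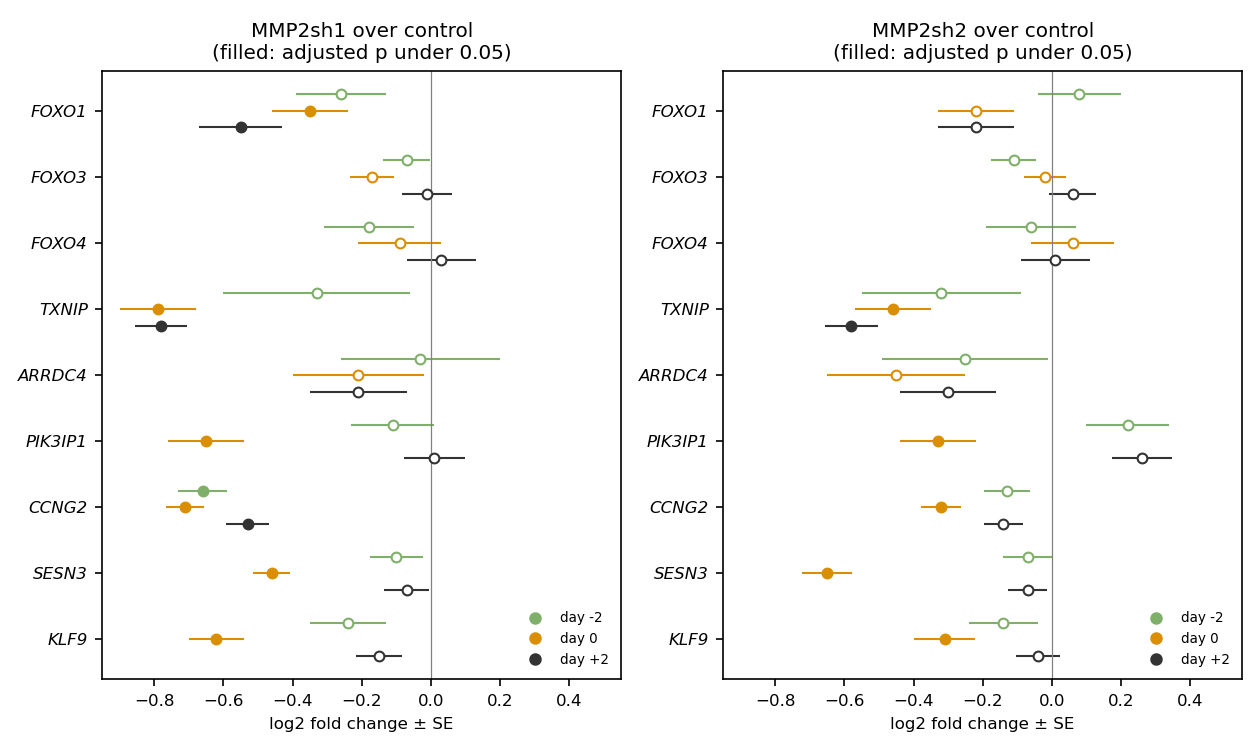
Log2 fold change ± SE of the 9 tested members in MMP2sh1 (left) and MMP2sh2 (right) over the pLKO.1 control at day -2 (green), day 0 (orange) and day +2 (black), with 3 libraries per group and filled points for those that passed the test. At day 0, PIK3IP1, SESN3 and KLF9 lie at -0.65 to -0.31, and their day +2 points are open.

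Because these genes were lower at day 0 and not called at day +2, each step was also tested on its own for a difference between lines, a choice made after the values were seen. From day -2 to day 0, 1 member differed in MMP2sh1, where 1.35% of all genes were called, and 2 in MMP2sh2, where 3.69% were called, all with a change below that in the control. From day 0 to day +2, 3 members differed in MMP2sh1, where 4.66% of all genes were called, and 2 in MMP2sh2, where 4.76% were called, all with a change above that in the control. The members were SESN3 and PIK3IP1 in both lines, and KLF9 in MMP2sh1. These steps share the libraries of day 0, so that a low value at day 0 enters both with opposite sign.

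SESN3 rose less than in the control to day 0, by a log2 difference of -0.36 ± 0.09 in MMP2sh1 (adjusted p = 0.046) and of -0.57 ± 0.11 in MMP2sh2 (adjusted p = 0.0016). It then rose more from day 0 to day +2, by 0.39 ± 0.09 (adjusted p = 0.0069) and 0.58 ± 0.10 (adjusted p = 0.00015). The earlier difference in MMP2sh1 was not called with all 27 libraries in 1 fit (adjusted p = 0.13), nor without control proliferating replicate 1 or 2, control confluent replicate 1 or 2, MMP2sh1 proliferating replicate 2 or 3, or MMP2sh1 confluent replicate 2 or 3 (-0.37 to -0.31, adjusted p from 0.077 to 0.18). PIK3IP1 had a lower mean at day 0 than at day -2 in both shRNA lines (8.05 against 9.02 CPM in MMP2sh1, 10.1 against 11.4 CPM in MMP2sh2), though the libraries overlapped. Its difference to day 0 was -0.54 ± 0.16 in MMP2sh1 (adjusted p = 0.10) and -0.54 ± 0.16 in MMP2sh2 (adjusted p = 0.043), and from day 0 to day +2 it was 0.66 ± 0.14 (adjusted p = 0.0022) and 0.59 ± 0.14 (adjusted p = 0.0052). The MMP2sh1 difference to day 0 passed with DESeq2 (adjusted p = 0.035) and without MMP2sh1 proliferating replicate 1 (-0.62, adjusted p = 0.038). The MMP2sh2 difference to day 0 was lost without control proliferating replicate 1 or 2, control confluent replicate 1 or 3, MMP2sh2 proliferating replicate 1, or MMP2sh2 confluent replicate 1 or 2 (-0.57 to -0.46, adjusted p from 0.066 to 0.13). KLF9 rose more from day 0 to day +2 in MMP2sh1 (0.47 ± 0.10, adjusted p = 0.0023), whereas in MMP2sh2 the difference was 0.27 ± 0.11 (adjusted p = 0.18). TXNIP differed from day 0 to day +2 by 0.01 ± 0.14 in MMP2sh1 (95% interval -0.25 to 0.28) and by -0.12 ± 0.14 in MMP2sh2 (-0.39 to 0.15). From day -2 to day 0 it differed by -0.48 ± 0.29 in MMP2sh1 (adjusted p = 0.56 in edgeR) and by -0.15 ± 0.23 in MMP2sh2 (adjusted p = 0.84). A beginning of the lower TXNIP level at confluence was thus not shown.

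**Figure D4:**
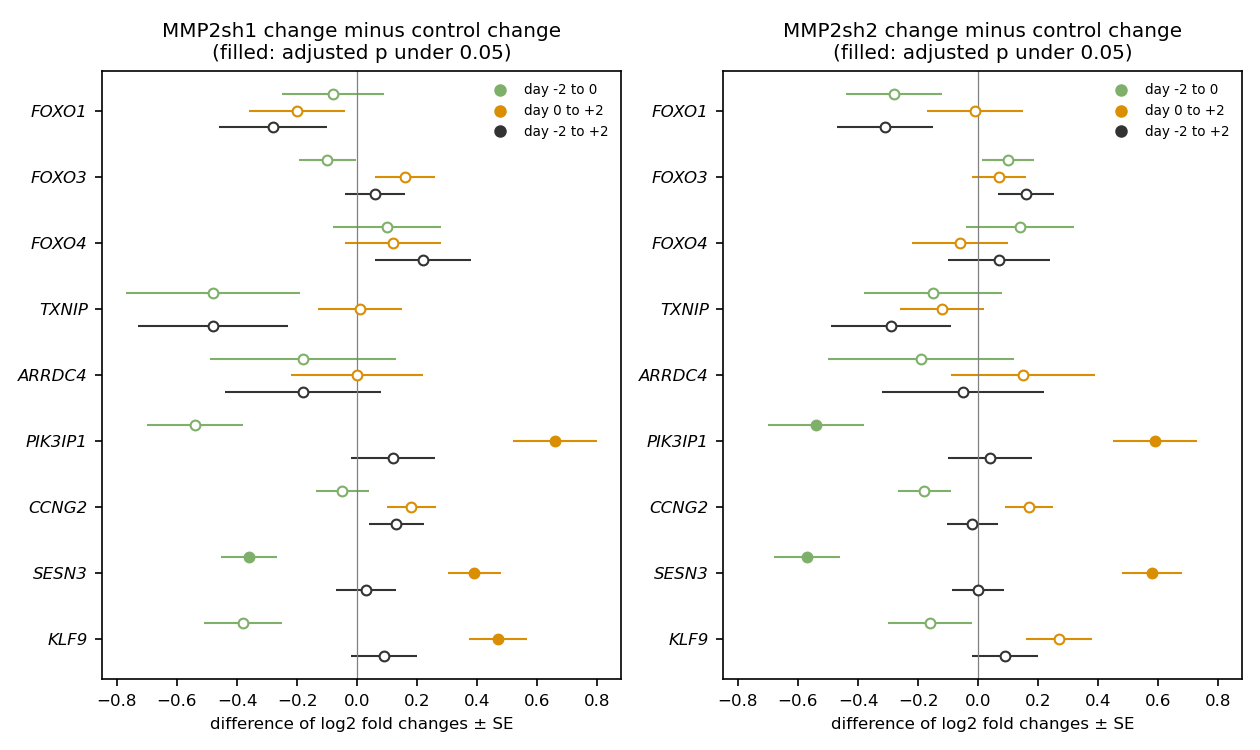
Difference between the log2 fold change in MMP2sh1 (left) or MMP2sh2 (right) and that in the pLKO.1 control, ± SE, for day -2 to day 0 (green), day 0 to day +2 (orange) and day -2 to day +2 (black), from fits of 12 libraries. SESN3 and PIK3IP1 lie below 0 for the step to day 0 and above 0 for the step to day +2, and no black point is filled.

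The genes around the members were counted in lists from the PI3K-AKT pathway and from regulators that share targets with FOXO. In the control from day -2 to day +2, the other known FOXO targets moved in both directions, with 13 higher and 9 lower of 23 tested and a median log2 fold change of 0.31, where 28.1% of all genes were higher and 28.6% lower. PDK4, a kinase that turns down glucose oxidation, rose by 3.25 ± 0.20 (adjusted p = 2.3e-13), FBXO32, a ubiquitin ligase of muscle wasting, by 2.98 ± 0.07 (adjusted p = 1.2e-22), and S1PR1, a sphingolipid receptor, fell by 3.12 ± 0.37 on the log2 scale (adjusted p = 4e-08). PCK1, the gluconeogenic enzyme, had 0 reads in all 3 control libraries of day -2 and 114, 284 and 329 reads at day +2, which is at least 86.2-fold higher when 3 reads are set for each library at 0. The list's median is the same with PCK1 at this bound. Of 28 genes of this list, FASLG, G6PC, IGFBP1, TNFSF10 and TRIM63 were too low to be tested.

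Of the PI3K-AKT pathway genes upstream of FOXO, 8 rose and 9 fell of 22 tested, with a median of -0.08. IRS1, the insulin receptor adaptor related to IRS2, fell by 0.83 ± 0.05 on the log2 scale (adjusted p = 7e-14) and PIK3CB, a catalytic subunit of PI3K, by 0.63 ± 0.08 (adjusted p = 7.8e-08). SGK1, an AKT-related kinase, rose by 0.51 ± 0.08 (adjusted p = 9.3e-06) and PIK3CA, another catalytic subunit, by 0.47 ± 0.07 (adjusted p = 4.4e-06). Of the MondoA, thioredoxin and alpha-arrestin genes, 5 rose and 5 fell of 11 tested (median -0.11). HBP1, a transcriptional repressor of the cell cycle, rose by 1.20 ± 0.06 (adjusted p = 3.4e-15) and the alpha-arrestins ARRDC3 and ARRDC2 by 1.19 ± 0.07 and 0.83 ± 0.09, whereas TXNRD1, thioredoxin reductase, fell by 1.55 ± 0.05 (adjusted p = 4.3e-20).

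Of 8 tested glucocorticoid-responsive genes, 4 rose and 2 fell (median 0.27). ERRFI1 and PER1 rose by 1.77 ± 0.06 and 1.20 ± 0.08, and DUSP1 fell by 1.62 ± 0.09. Of 10 sestrin, cyclin G and p53 target genes, 3 rose and 4 fell (median -0.16). TP53INP1 rose by 0.87 ± 0.08, whereas CDKN1A, the p21 inhibitor of cyclin-dependent kinases, fell by 0.67 ± 0.05 and CCNG1, the relative of CCNG2, by 0.36 ± 0.05. CDKN1A, SESN1 and SGK1 are each in 2 of the lists. Against the median of 0.03 over all genes, none of these lists had a median near the 1.18 of the members. Members and lists were drawn up with earlier results of these data known, so this contrast is a description and does not set the members apart.

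**Figure D5:**
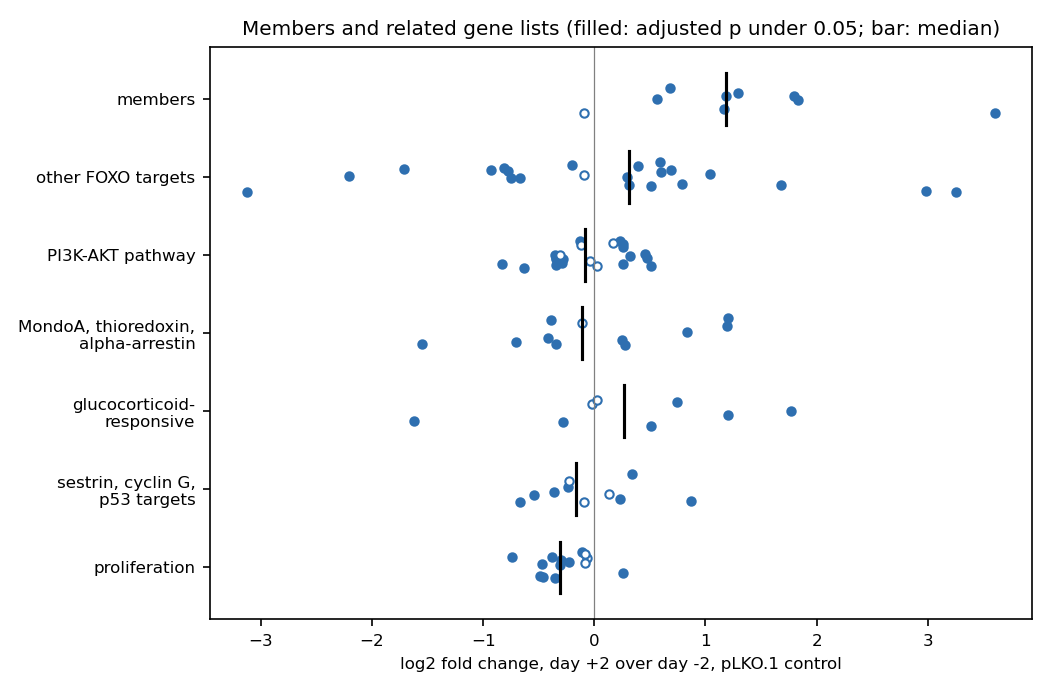
Log2 fold change of each tested gene in the pLKO.1 control, day +2 over day -2, for the members and 6 related lists, with filled points for genes that passed the test and a bar at each median. PCK1 enters the median of the FOXO targets but is not drawn, since it had 0 reads at day -2. The members' median is 1.18 and those of the other lists lie between -0.31 and 0.31.

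Over all genes tested, 6.14%, 8.58% and 7.11% were called lower and 5.42%, 8.26% and 7.68% higher in MMP2sh1 at days -2, 0 and +2, and 6.33%, 5.81% and 3.43% lower and 4.71%, 7.07% and 2.89% higher in MMP2sh2. Of the other FOXO targets in MMP2sh1, 7 were called lower and 3 higher of 22 at day -2, 11 and 1 of 24 at day 0 and 9 and 1 of 23 at day +2. In MMP2sh2 the counts were 4 lower and 3 higher of 22, 5 and 6 of 23, and 7 and 1 of 23. BBC3, CDKN1B and BCL6 were lower in MMP2sh1 at all 3 days. BCL6, a transcriptional repressor, was lower there by log2 fold changes of -0.30 ± 0.10, -0.69 ± 0.09 and -0.54 ± 0.07 (adjusted p = 0.047, 3.4e-07 and 3.9e-07). CAT, which encodes catalase, was lower at all 3 days in MMP2sh2 (-0.22 ± 0.07, -0.36 ± 0.06 and -0.43 ± 0.06). PCK1 at day +2 had 3, 21 and 2 reads in MMP2sh1 and 18, 13 and 7 in MMP2sh2, far below the control, with log2 fold changes of -4.78 ± 0.42 (adjusted p = 1.3e-09) and -4.32 ± 0.31 (adjusted p = 1.6e-13).

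Of the 22 PI3K-AKT genes, 3, 8 and 5 were lower and 0, 2 and 2 higher in MMP2sh1 at the 3 days, and 1, 3 and 1 lower and 1, 0 and 0 higher in MMP2sh2. The share of this list called in either direction was 13.6%, 45.5% and 31.8% in MMP2sh1, beside 11.6%, 16.8% and 14.8% of all genes, and 9.09%, 13.6% and 4.55% in MMP2sh2, beside 11%, 12.9% and 6.32%. At day -2 in MMP2sh1 and at every day in MMP2sh2 these shares were near those of all genes. IRS1 was lower in MMP2sh1 at all 3 days, with log2 fold changes of -0.21 ± 0.05, -0.29 ± 0.04 and -0.28 ± 0.06. SGK1 was lower in both lines at day 0 (-1.25 ± 0.09 and -0.82 ± 0.08) and at day +2 (-1.39 ± 0.10 and -0.88 ± 0.10), and in MMP2sh2 it was higher at day -2 (0.33 ± 0.09, adjusted p = 0.023). ARRDC3 was lower in MMP2sh1 at all 3 days (-0.36 ± 0.09, -0.37 ± 0.06 and -0.49 ± 0.07), HBP1 in MMP2sh2 (-0.27 ± 0.08, -0.38 ± 0.07 and -0.35 ± 0.07), and TP53INP1 in MMP2sh1 (-0.74 ± 0.10, -0.75 ± 0.09 and -0.31 ± 0.08). Of 8 glucocorticoid-responsive genes tested, 2, 4 and 5 were lower and 0, 1 and 0 higher in MMP2sh1, and 0, 1 and 3 lower and 2, 2 and 0 higher in MMP2sh2.

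Of the 11 MondoA, thioredoxin and alpha-arrestin genes tested, 2, 1 and 3 were lower and 0, 1 and 0 higher in MMP2sh1 at the 3 days, and 1, 2 and 3 lower and 1, 2 and 1 higher in MMP2sh2. Of the 10 sestrin, cyclin G and p53 target genes, 2, 3 and 2 were lower and 1, 1 and 0 higher in MMP2sh1, and 2, 1 and 0 lower and 0, 2 and 2 higher in MMP2sh2. Of 14 proliferation genes, 2, 1 and 1 were lower and 0, 2 and 1 higher in MMP2sh1, and 3, 1 and 1 lower and 0, 1 and 0 higher in MMP2sh2.

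The members' profiles over the 27 libraries, taken as log2 CPM, were most alike for SESN3 and TXNIP (Pearson r = 0.97) and for SESN3 and KLF9 (r = 0.95). FOXO3 was least like the others, with r from -0.09 to 0.21. The libraries share lines and days, so that these values are a description. Among 15136 genes with a mean of at least 1 CPM, those most like KLF9 were KLHL24 (r = 0.991), PHLDA1 (0.990) and TSC22D1 (0.985), and those most like TXNIP were TRIB2 (0.981), HAS2 (0.976) and ABCG1 (0.974). SESN3 was nearest to HAS2 (0.984), CCNG2 to PODNL1 (0.977), PIK3IP1 to TEF (0.975), FOXO4 to DPP10 (0.952), ARRDC4 to JAK3 (0.942) and FOXO1 to NFIA (0.854). The nearest gene to FOXO3, RMND5A, reached only r = 0.596.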

How the data were processed

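Poly(A) RNA-seq of 27 libraries, 3 lines at 3 days with 3 replicates, was analysed. The authors used Trim Galore 0.6.0 for trimming and STAR 2.7.3a for alignment to hg19 (GRCh37), filtered alignments with Samtools and counted reads on exons without regard to strand with HTSeq 2.0.0. The annotation version is not given in the sources used here. Raw counts, 1 row for each symbol, were deposited. Summary lines that name no gene (16.77% to 19.1% of the total) were left out.

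Counts were fitted with edgeR 4.0.16 in R 4.3.3 (filterByExpr with a minimum count of 10 and a minimum total of 15, TMM scaling, quasi-likelihood test), each comparison on its own 6 libraries and each interaction on 12. SE is the size of the log2 fold change divided by the square root of F, and 95% intervals are normal intervals from it. The alternatives were DESeq2 1.42.0, median-of-ratios scaling, other filters, all 27 libraries in 1 fit, the replicate number as a block and each library left out. On simulated data edgeR kept its false calls near the nominal rate, but DESeq2 exceeded that rate in the interaction, so calls made by DESeq2 alone there are less certain. The simulation covered only some of the comparisons, with independent counts and few changed genes. It therefore does not give the rate of false calls in the real data. Levels are CPM. Positions are from GENCODE v44 lifted to GRCh37, and promoters, found for all 10 members, from RefSeq.

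The members and gene lists were chosen with earlier results of these data known. All members are named, and so are the 4 called genes with the largest change in each list of regulators, genes called with 1 sign at all days in a line, and the genes with the most similar profiles. 1 of the genes this rule names is not reported here. The steps tested separately as interactions were added after the values were seen. Where replicates are said to be independent, this comes from the study, and counting intervals cover counting error only.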

Additional observations from a re-analysis of the deposited data

Results flagged for a closer look

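The change between days differed between an shRNA line and the control for 3 members, by the interaction of line and day in edgeR. These tests of single steps were chosen after the values were seen, and both lines were set against the same control libraries. To day 0, 1.35% of all genes were called in MMP2sh1 and 3.69% in MMP2sh2. From day 0 to day +2 the shares were 4.66% and 4.76%. Over the whole change from day -2 to day +2, no member was called in either line. For SESN3 the log2 difference was -0.36 in MMP2sh1 and -0.57 in MMP2sh2 from day -2 to day 0, and 0.39 and 0.58 from day 0 to day +2. For PIK3IP1 it was -0.54 in MMP2sh2 from day -2 to day 0, and 0.66 in MMP2sh1 and 0.59 in MMP2sh2 from day 0 to day +2. For KLF9 it was 0.47 in MMP2sh1 from day 0 to day +2. The 5 differences of the later step were called with every library left out in turn, whereas SESN3 in MMP2sh1 and PIK3IP1 in MMP2sh2 to day 0 were lost without several libraries, as given above. No cause was tested.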

How the results depend on the processing

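Of 153 tested changes of members, 60 were called. None of the 60 reversed under any alternative, 3 were lost under another tool, filter, fit or block and 9 without some library, as named in the report. The cause was not tested. The count of members called in MMP2sh2 against control at day +2 was 2 with a minimum of 10 counts in each of the libraries, and that for the MMP2sh1 difference from day -2 to day 0 was 2 with DESeq2 and 0 with all 27 libraries in 1 fit. Leaving out single libraries gave counts of 2 to 5 for MMP2sh2 against control at day 0, 1 to 2 for MMP2sh2 at day +2, 0 to 1 for the MMP2sh1 difference from day -2 to day +2, 0 to 2 for MMP2sh1 and 1 to 2 for MMP2sh2 from day -2 to day 0. The replicate numbers did not pair the samples (108 correlations of same-numbered deviations, -0.100 to 0.149, 3 over 0.1), and with the replicate number as a block the counts were 8, 6 and 8 for the control days (day +2 against -2, day 0 against -2, day +2 against 0), 7 and 7 for the shRNA lines over expansion, 1, 7 and 3 for MMP2sh1 and 0, 4 and 1 for MMP2sh2 against control at the 3 days, and 0 and 0 for the differences over expansion. FOXO3 in MMP2sh1 at day 0 was called with the block (adjusted p = 0.048), PIK3IP1 in MMP2sh2 at day 0 was not (0.052). Values near 0 changed sign: ARRDC4 in MMP2sh1 at day -2 was 0.007 with the block, SESN3 in the MMP2sh2 difference over expansion was 0.001 without a filter and 0.013 with a minimum of 10 counts in each of the libraries, and ARRDC4 in the MMP2sh1 difference from day 0 to day +2 was -0.001 with DESeq2 or median-of-ratios scaling. Without single libraries, log2 values of uncalled results also changed sign. For control day 0 against day -2, the range was FOXO4 -0.065 to 0.116. For control day +2 against day 0, the range was FOXO3 -0.024 to 0.072. For MMP2sh1 day +2 against day -2, the range was FOXO3 -0.110 to 0.021. For MMP2sh1 against control day -2, the range was ARRDC4 -0.266 to 0.158. For MMP2sh1 against control day 0, the range was FOXO4 -0.152 to 0.034. For MMP2sh1 against control day +2, the range was FOXO3 -0.079 to 0.053, FOXO4 -0.047 to 0.087, PIK3IP1 -0.056 to 0.067, SESN3 -0.120 to 0.011. For MMP2sh2 against control day -2, the range was FOXO4 -0.172 to 0.046. For MMP2sh2 against control day 0, the range was FOXO3 -0.055 to 0.018. For MMP2sh2 against control day +2, the range was FOXO4 -0.073 to 0.063. For MMP2sh1 difference over day -2 to day +2, the range was FOXO3 -0.005 to 0.124, ARRDC4 -0.358 to 0.049, SESN3 -0.044 to 0.108. For MMP2sh2 difference over day -2 to day +2, the range was FOXO4 -0.039 to 0.182, ARRDC4 -0.233 to 0.173, PIK3IP1 -0.026 to 0.125, CCNG2 -0.062 to 0.037, SESN3 -0.047 to 0.060. For MMP2sh1 day -2 to day 0 difference, the range was ARRDC4 -0.365 to 0.050, CCNG2 -0.100 to 0.000, MMP2 -0.038 to 0.187. For MMP2sh1 day 0 to day +2 difference, the range was TXNIP -0.105 to 0.124, ARRDC4 -0.142 to 0.133. For MMP2sh2 day -2 to day 0 difference, the range was FOXO4 -0.003 to 0.250, TXNIP -0.453 to 0.030, ARRDC4 -0.377 to 0.010. For MMP2sh2 day 0 to day +2 difference, the range was FOXO1 -0.084 to 0.104, ARRDC4 0.000 to 0.302. The fits leaving out a library have 2 libraries in that group, and the depth does not allow a statement on IRS2.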

Other observations

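FOXO6, the remaining human FOXO gene and no member of the set, was counted at 30.8 to 57.7 CPM over the 27 libraries. It did not pass the test between day +2 and day -2 in the control (-0.15 ± 0.07, adjusted p = 0.058 in edgeR). Over the same days it was called lower in MMP2sh1 (-0.49 ± 0.085, adjusted p = 2.8e-05) and not called in MMP2sh2 (-0.19 ± 0.089, adjusted p = 0.075). The MMP2sh1 change did not differ from that of the control by the interaction (-0.33 ± 0.11, adjusted p = 0.073). It was higher in MMP2sh1 at day -2 (0.30 ± 0.08, adjusted p = 0.011) and lower in MMP2sh2 at day 0 (-0.25 ± 0.07, adjusted p = 0.012).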
